A study of Mus musculus with 6 samples.

Results

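The nuclear-encoded genes of the mitochondrial respiratory chain were examined in bulk RNA from the subventricular zone (SVZ), a neural stem cell niche beside the lateral ventricle of the mouse brain. The rule for membership used symbols only. It took symbols beginning Ndufa, Ndufb, Ndufc, Ndufs, Ndufv, Uqcr, Cox4 to Cox8 or Atp5, together with Sdha to Sdhd, and left out the assembly factors named Ndufaf. It found 86 of 18614 genes: 40 of complex I, 4 of complex II, 8 of complex III, 17 of complex IV and 17 of complex V. Of these, 85 are annotated as protein-coding and Ndufa11b as a pseudogene. Cox8c, Ndufb1 and Ndufb4b, which also match the rule, and the 13 protein genes of mitochondrial DNA were not analysed here.

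The compared groups were 3 libraries labelled KO, from mice homozygous for a deletion of Zhx2 (Zhx2Δ/Δ), and 3 libraries labelled WT (Zhx2+/+). Zhx2 encodes a zinc finger and homeobox protein that acts as a transcriptional repressor. All 3 KO titles name ZHX2, but in the genotype field KO 2 is entered as ZHX3 KO and KO 3 as ZHX4 KO. The labels do not state age, sex, strain, the extent of the deletion, or whether each library is 1 animal. RNA of Zhx2 was not lower in KO-labelled libraries: it had 1139, 1004 and 959 counts in KO 1 to 3, against 735, 675 and 659 in WT 1 to 3. Its log2 fold change was 0.61 (SE 0.10; edgeR adjusted p = 0.163, DESeq2 adjusted p = 0.00142). Directions below are therefore those of the libraries labelled KO, and they carry no statement on loss of Zhx2.

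Libraries were of like depth, from 17037152 to 17685906 estimated counts. Libraries differed in markers of neighbouring tissue. Summed choroid plexus markers lay between 502 and 921 CPM (counts scaled to library size) in KO-labelled libraries, against 5741 to 24114 CPM in WT libraries. Summed markers of striatal projection neurons lay between 4320 and 5568 CPM in KO-labelled libraries, against 804 to 9270 CPM in WT libraries. Some marker sums also differed among the KO-labelled libraries. Cortical excitatory markers summed to 5000, 3746 and 2821 CPM in KO 1 to 3, against 2153, 2597 and 3750 in WT 1 to 3. Oligodendrocyte markers summed to 19502, 11542 and 8440 CPM in KO 1 to 3, against 14119, 13926 and 13824 in WT 1 to 3. Neuroblast markers summed to 908 to 1104 CPM in KO-labelled libraries, against 690 to 952 CPM in WT libraries. Much of these sums came from Tubb3 and Stmn1, which other neurons express too. Sp8 is a more specific neuroblast gene. It was at 11.7, 18.3 and 19.7 CPM in KO 1 to 3, against 35.7, 2.76 and 20.8 CPM in WT 1 to 3. The neuroblast marker Dcx ranged less than Sp8. Dcx was at 34.4, 30.4 and 47 CPM in KO 1 to 3, against 40.4, 40 and 47.2 CPM in WT 1 to 3. Of the 10 neuroblast markers, 5 had positive and 5 had negative log2 fold changes.

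The respiratory chain moves electrons from NADH and succinate to oxygen and stores the energy as a proton gradient, which ATP synthase (complex V) uses to make ATP. Complex I oxidises NADH, complex II oxidises succinate, complex III passes electrons to cytochrome c and complex IV passes them to oxygen. All but complex II mix subunits of the nuclear genome with subunits of mitochondrial DNA. Several small subunits of complex IV exist as alternative isoforms, of which one is widely expressed and the other is known mainly from heart and skeletal muscle, lung or testis. In the brain, neurons draw most of their ATP from this pathway, while neural stem cells are known for a larger reliance on glycolysis.

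Respiratory chain genes were nearly level between the groups, apart from a pair of complex IV isoforms, Cox8b and Cox6b2, that were at lower levels in all 3 KO-labelled libraries. Of the 86 members, 84 passed the filter on low counts; Ndufa11b and Cox7b2 did not. edgeR called 0 of the 84 at an adjusted p under 0.05, as it did 0 of 15126 genes (0%), and limma-voom also called 0. At an unadjusted p under 0.05, edgeR had 3 members higher (Sdhb, Ndufa10 and Cox5b) and 2 lower (Cox8b and Cox6b2), against 2.68% and 6.39% of all genes tested (9.07% in both directions). DESeq2 called Cox8b and Cox6b2 lower and no member higher. Cox8b passed the filter only through the WT libraries, where it was high, so its call is a description. Over all genes DESeq2 called 2.06%, with 2.02% lower and 0.0397% higher. The 2 of 84 members called lower are thus close to the share of all genes. Without WT 3, edgeR called 1 member, Cox8b, and 137 genes in all (0.895%).

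The estimates had narrow intervals. The 95% interval of the fold change lay within 1.5-fold of no difference in either direction for 75 of 84 members (89.3%), against 51.0% of all genes tested. The standard error of the log2 fold changes had a median of 0.13 over the members and 0.17 over all genes. The members were also at higher levels. Their mean log2 CPM lay between 5.98 and 6.22 in the libraries, against 4.43 to 4.48 over all genes tested. The part of level in the width of the intervals was not tested. The 9 members with wider intervals were the 5 restricted isoforms Cox8b, Cox6b2, Cox6a2, Cox4i2 and Cox7a1, together with Ndufa4l2, Ndufb4c, Ndufa2 and Ndufb9. Ndufb4c is a near copy of Ndufb4, so the split of counts between them is uncertain.

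The log2 fold changes of the members had a median of 0.08 with quartiles at 0.01 and 0.14, beside 0.02, with quartiles at -0.15 and 0.16, over all genes tested. They were positive for 63 of 84 members (75%), against 53.4% of all genes, most of which have longer transcripts than the median member. By complex the median was 0.10 for complex I, 0.01 for complex II, and 0.07 for each of complexes III, IV and V. Each KO-labelled library lay above each WT library for 10 members (all genes 8%) and below for 2 (all genes 8.74%), and the groups overlapped for the other 72.

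**Figure D1:**
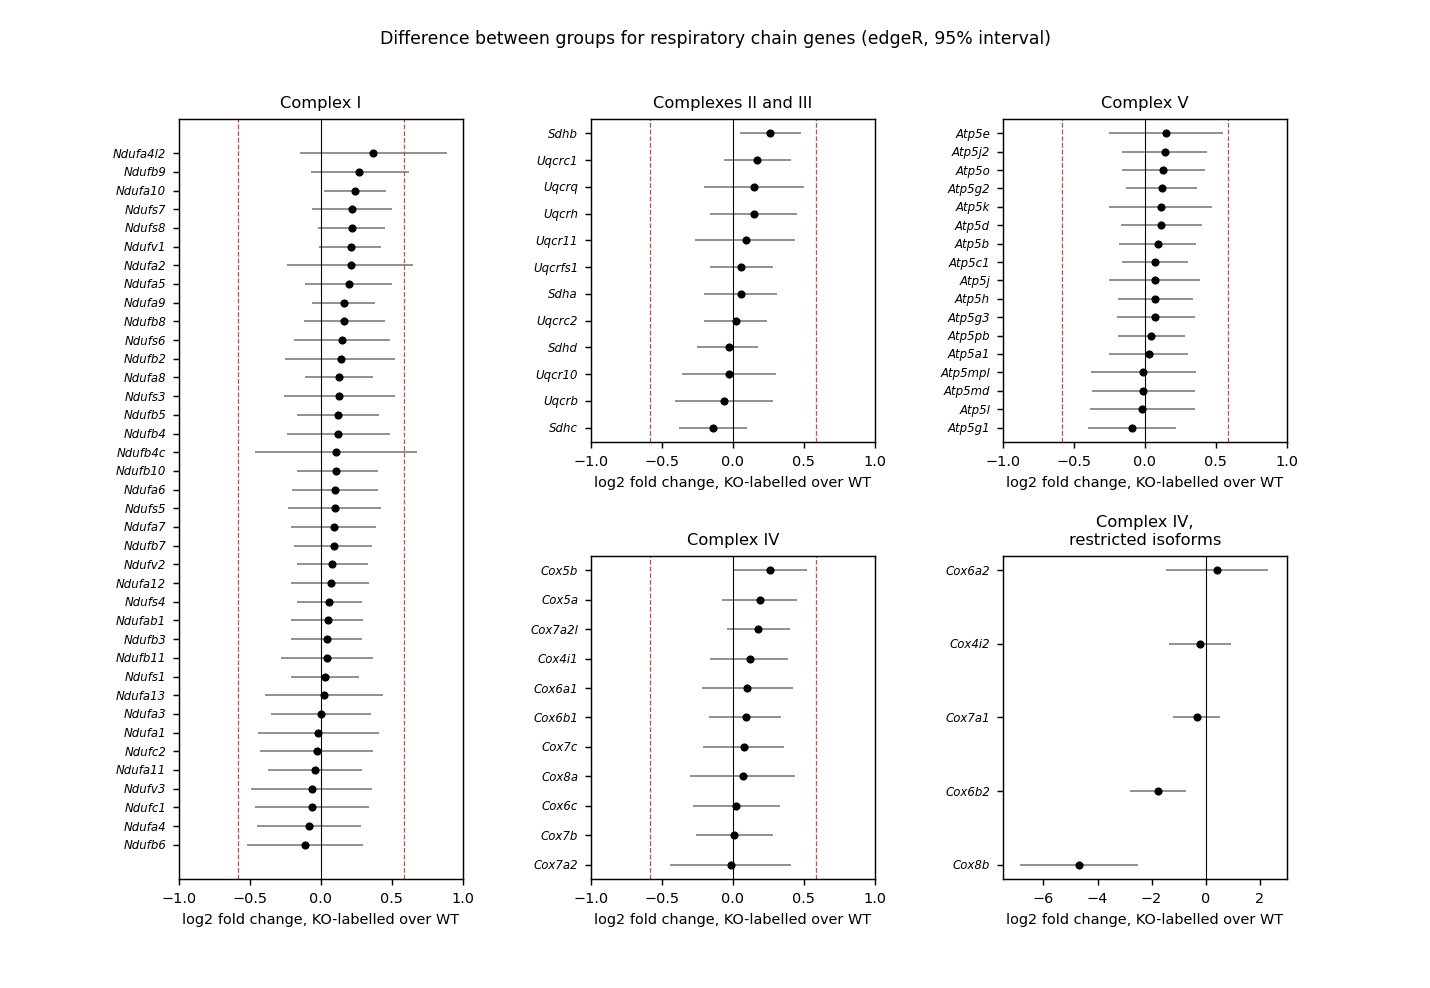
Log2 fold change (x axis, KO-labelled over WT libraries) and its 95% interval from edgeR for members tested (y axis), with 3 libraries per group. Dashed lines mark a 1.5-fold difference. The x axis is wider for the restricted isoforms of complex IV, where the intervals of Cox8b and Cox6b2 lie below 0.

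In complex I, all 7 nuclear core subunits, which carry the flavin and iron-sulfur clusters or border the quinone site, had positive log2 fold changes between 0.03 and 0.22, with a median of 0.14. None passed in edgeR, where the lowest adjusted p of the 7 was 0.572. Ndufv1, the subunit that binds the flavin and oxidises NADH, was at 111, 125 and 115 CPM in KO 1 to 3, against 100, 104 and 100 CPM in WT 1 to 3. All 3 KO-labelled libraries lay above the WT libraries, with a log2 fold change of 0.21 (SE 0.09; edgeR adjusted p = 0.572). Ndufs8, an iron-sulfur subunit, was at 51.1, 54.1 and 46.6 CPM in KO 1 to 3, against 44.6, 41.1 and 44.7 CPM in WT 1 to 3. These groups did not overlap either, with a log2 fold change of 0.22 (SE 0.10; edgeR adjusted p = 0.577).

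The accessory subunits of complex I surround the core and serve its assembly and stability. Of the 31 genes counted here as accessory by their symbols, Ndufa4 among them, 23 had a positive log2 fold change and 8 a negative one, with a median of 0.09. Ndufa10, an accessory subunit of the matrix arm with a nucleoside kinase fold, was at 119, 132 and 122 CPM in KO 1 to 3, against 102, 108 and 105 CPM in WT 1 to 3. The lowest KO-labelled library lay above the highest WT library, and the log2 fold change was 0.24 (SE 0.09; edgeR adjusted p = 0.508). Ndufb9, of the membrane arm, was at 126, 124 and 90.1 CPM in KO 1 to 3, against 90.4, 92.4 and 97.9 CPM in WT 1 to 3. KO 3 lay below all WT libraries while KO 1 and KO 2 lay above them, and the log2 fold change was 0.27 (SE 0.15; edgeR adjusted p = 0.631). Ndufa9, named after its values were seen, also had groups that did not overlap, with a log2 fold change of 0.16.

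Ndufa4, found with complex IV in later structural work despite its name, had the highest level per length of the complex I symbols, with a mean of 393 FPKM (fragments per transcript length and library size) over the 6 libraries. It was at 180, 183 and 165 CPM in KO 1 to 3, against 229, 168 and 163 CPM in WT 1 to 3, with WT 1 above the other libraries and the rest close together. Its log2 fold change was -0.08 (SE 0.15; edgeR adjusted p = 0.896). Its relative Ndufa4l2, known as a hypoxia-induced gene, had the lowest level of the tested complex I genes, with a mean of 3.78 FPKM. Ndufa4l2 was at 3.83, 4.38 and 3.82 CPM in KO 1 to 3, against 3.14, 3.60 and 2.55 CPM in WT 1 to 3, without overlap. The log2 fold change was 0.37 (SE 0.22; edgeR adjusted p = 0.662).

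The 4 genes of complex II differed in sign. Sdhb, the iron-sulfur subunit that hands electrons from the flavin towards the quinone, was at 109, 118 and 106 CPM in KO 1 to 3, against 94.7, 91.7 and 90.4 CPM in WT 1 to 3. Its mean was 111 ± 6.39 CPM in KO-labelled libraries and 92.3 ± 2.21 CPM in WT libraries (SD, n = 3 each), without overlap. The log2 fold change of 0.26 (SE 0.09) had the smallest p of the members that were higher, with an edgeR adjusted p of 0.470. Over the alternatives tried the adjusted p of Sdhb lay between 0.395 and 0.857.

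Sdha, the flavoprotein that oxidises succinate, was at 339, 369 and 394 CPM in KO 1 to 3, against 368, 344 and 345 CPM in WT 1 to 3. KO 1 was the lowest of the 6 libraries and KO 3 the highest, so the groups overlapped, and the log2 fold change was 0.06 (SE 0.11). The membrane anchors had negative values. Sdhc was at 101, 98.5 and 105 CPM in KO 1 to 3, against 120, 115 and 101 CPM in WT 1 to 3, with a log2 fold change of -0.14 (SE 0.10). Sdhd was at 55.4, 52.4 and 54.1 CPM in KO 1 to 3, against 58.8, 52.8 and 54.0 CPM in WT 1 to 3, with a log2 fold change of -0.03 (SE 0.09). The edgeR adjusted p was 0.722 for Sdhc and 0.935 for Sdhd.

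In complex III, 6 of 8 genes had a positive log2 fold change. Uqcrc1, a core protein on the matrix side, was at 216, 233 and 204 CPM in KO 1 to 3, against 194, 198 and 187 CPM in WT 1 to 3. The groups did not overlap, and the log2 fold change was 0.17 (SE 0.10; edgeR adjusted p = 0.653). Uqcrc2, its partner, was the steadiest member across libraries, at 182, 173 and 186 CPM in KO 1 to 3, against 184, 178 and 172 CPM in WT 1 to 3. The ratio of its highest to its lowest library was 1.08. Uqcrfs1, the Rieske iron-sulfur protein, had a log2 fold change of 0.06 (SE 0.09), the hinge protein gene Uqcrh one of 0.15 (SE 0.13) and Uqcrq one of 0.15 (SE 0.15). The edgeR adjusted p was 0.870 for Uqcrfs1, 0.766 for Uqcrh and 0.793 for Uqcrq. Uqcr11 had the highest level per length in the complex, 189 FPKM, and Uqcrq the lowest, 53.6 FPKM.

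In complex IV, the 10 widely expressed subunit genes had a median log2 fold change of 0.08, with 9 positive and 1 negative. Cox5b, a zinc-binding subunit on the matrix side, was at 180, 178 and 155 CPM in KO 1 to 3, against 150, 147 and 132 CPM in WT 1 to 3. KO 3 lay just above WT 1, so the groups did not overlap, and the log2 fold change was 0.26 (SE 0.11; edgeR adjusted p = 0.549). Cox7a2l, known as a factor that joins complexes III and IV into supercomplexes, was at 127, 138 and 122 CPM in KO 1 to 3, against 113, 114 and 113 CPM in WT 1 to 3. The WT libraries lay close together and below all KO-labelled libraries, with a log2 fold change of 0.18 (SE 0.09; edgeR adjusted p = 0.614). Cox8a had the highest level of all members, with a mean of 651 FPKM, and its log2 fold change was 0.07 (SE 0.16).

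The small positive values of the members stood beside positive values of some other cell type markers and negative values of others. None of these markers passed in edgeR. DESeq2 called 1 general neuron marker, Uchl1, higher (adjusted p = 0.0267), as it did 0.0397% of all genes. The 10 general neuron markers all had positive log2 fold changes, with a median of 0.29. Each KO-labelled library lay above each WT library for 4 of them (all genes 8%), and the groups overlapped for 6. The 10 markers summed to 6817, 6397 and 6442 CPM in KO 1 to 3, against 5142, 5167 and 6198 CPM in WT 1 to 3. Their median deviation was 0.18, 0.25 and 0.12 in KO 1 to 3, against -0.16, -0.20 and 0.07 in WT 1 to 3. The chain had 0.06, 0.10 and -0.05 in KO 1 to 3, against 0.12, -0.11 and -0.13 in WT 1 to 3. The signs were the same in KO 1, KO 2 and WT 2 and opposite in the other libraries. The 11 microglia markers were all positive too, with a median of 0.32. Each KO-labelled library lay above each WT library for 5 of them (all genes 8%), with overlap for 6. The 11 markers summed to 679, 737 and 611 CPM in KO 1 to 3, against 498, 590 and 561 CPM in WT 1 to 3. Oligodendrocyte markers were negative for 9 of 10, with a median of -0.08. Endothelial markers were negative for 5 of 9, with a median of -0.05. DESeq2 called 2 of the 9 lower, against 2.02% of all genes. These were Ocln (log2 fold change -1.15, DESeq2 adjusted p = 0.000404) and Kdr (log2 fold change -0.88, DESeq2 adjusted p = 0.0364). Of 10 astrocyte markers, 7 were positive and 3 negative, with a median of 0.15. In bulk RNA, fewer cells of a type and less RNA per cell cannot be told apart. The part of cell composition in the small positive values of Sdhb, Ndufa10, Cox5b and the others was not tested.

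Cox8b and Cox6b2 were the members with the largest differences, and both are alternative isoforms at low levels. Cox8b (chr7:140898942-140900446 in mm10) encodes the form of subunit VIII known in rodents from heart, skeletal muscle and brown fat. Cox6b2 (chr7:4751792-4753094) encodes the form of subunit VIb known from testis. Their promoters are shown beside those of the widely expressed partners Cox8a and Cox6b1. The pairs differed in level and in log2 fold change, and the part of promoter sequence in either was not tested. Each run holds the 250 bases before and 50 bases after the start of the gene, 5′ to 3′ on the strand of the gene, from RefSeq (GRCm38.p6). Capitals mark TATAAA in Cox8b, which lies just after the annotated start. They also mark CTTCCGG, the reverse complement of the ETS core CCGGAAG, in Cox8a and Cox6b1.
Cox8b: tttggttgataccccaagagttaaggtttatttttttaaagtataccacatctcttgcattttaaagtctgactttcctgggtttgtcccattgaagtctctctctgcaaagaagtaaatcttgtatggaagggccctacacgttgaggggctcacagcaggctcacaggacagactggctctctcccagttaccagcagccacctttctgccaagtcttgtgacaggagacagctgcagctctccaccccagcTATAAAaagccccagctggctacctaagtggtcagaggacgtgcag
Cox8a: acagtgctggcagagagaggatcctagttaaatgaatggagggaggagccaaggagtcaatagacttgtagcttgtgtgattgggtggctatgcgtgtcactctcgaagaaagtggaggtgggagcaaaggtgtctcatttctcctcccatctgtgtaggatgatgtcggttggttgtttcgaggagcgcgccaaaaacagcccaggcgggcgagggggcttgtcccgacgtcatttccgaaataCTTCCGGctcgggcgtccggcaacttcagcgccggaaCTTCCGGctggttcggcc
Cox6b2: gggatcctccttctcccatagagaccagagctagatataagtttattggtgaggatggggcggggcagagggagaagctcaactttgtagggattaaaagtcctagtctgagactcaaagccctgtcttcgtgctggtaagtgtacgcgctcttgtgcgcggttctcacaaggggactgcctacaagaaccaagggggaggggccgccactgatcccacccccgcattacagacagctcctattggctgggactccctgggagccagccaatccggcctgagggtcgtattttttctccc
Cox6b1: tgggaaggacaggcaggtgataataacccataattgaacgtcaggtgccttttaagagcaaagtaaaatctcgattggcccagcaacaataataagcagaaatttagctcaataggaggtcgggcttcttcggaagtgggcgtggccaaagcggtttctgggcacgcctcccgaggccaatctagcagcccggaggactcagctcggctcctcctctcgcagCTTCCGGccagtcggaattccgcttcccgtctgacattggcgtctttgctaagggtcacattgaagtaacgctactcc
The windows are chr7:140900397-140900696 for Cox8b, chr19:7217567-7217866 for Cox8a, chr7:4753045-4753344 for Cox6b2 and chr7:30626065-30626364 for Cox6b1, all on the minus strand. The Cox8b window held 2 CpG dinucleotides, the fewest of the 68 members with a window, against 19 in the Cox8a window, which equals the median of the members. The Cox6b2 window held 10 CpG and the Cox6b1 window 17.

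Cox8b had 1, 2 and 2 counts in KO 1 to 3, against 86, 46 and 10 counts in WT 1 to 3. It passed the filter on low counts only through the WT libraries, where it was high, so its values are a description of a gene selected by that difference. All KO-labelled libraries were below the floor of 3 counts, while the WT libraries differed among themselves, with WT 1 highest and WT 3 lowest. Summed over libraries, 5 counts in KO-labelled and 142 in WT libraries gave a ratio of 0.0352, with an exact 95% interval of 0.0113 to 0.0841 that covers counting error only. The fitted log2 fold change was -4.68 (SE 0.92; edgeR adjusted p = 0.192; DESeq2 adjusted p = 0.000321). It lay between -5.15 and -4.00 with single libraries left out, and without WT 3 it passed in edgeR (adjusted p = 0.0143). Over the alternatives tried its adjusted p lay between 0.000321 and 0.827.

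Cox6b2 had 30, 37 and 21 counts in KO 1 to 3, against 158, 100 and 51 counts in WT 1 to 3. WT 1 was again the highest and WT 3 the lowest WT library, and the highest KO-labelled library lay below the lowest WT library. Its level was 1.71 ± 0.452 CPM in KO-labelled libraries and 5.84 ± 2.80 CPM in WT libraries (SD, n = 3 each). The fitted log2 fold change was -1.77 (SE 0.43; edgeR adjusted p = 0.284; DESeq2 adjusted p = 0.0141), between -2.08 and -1.38 with single libraries left out. Over the alternatives its adjusted p lay between 0.0141 and 0.827.

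These isoforms were a minor share of their subunit in every library. Cox8b made up 0.0227%, 0.0512% and 0.0642% of the summed FPKM of Cox8a and Cox8b in KO 1 to 3, against 1.97%, 1.43% and 0.275% in WT 1 to 3. Cox6b2 made up 1.13%, 1.43% and 0.905% of the summed FPKM of Cox6b1 and Cox6b2 in KO 1 to 3, against 5.52%, 4.31% and 2.28% in WT 1 to 3. The partners did not share the difference: the log2 fold change was 0.07 (SE 0.16; edgeR adjusted p = 0.919) for Cox8a and 0.09 (SE 0.11; edgeR adjusted p = 0.839) for Cox6b1.

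**Figure D2:**
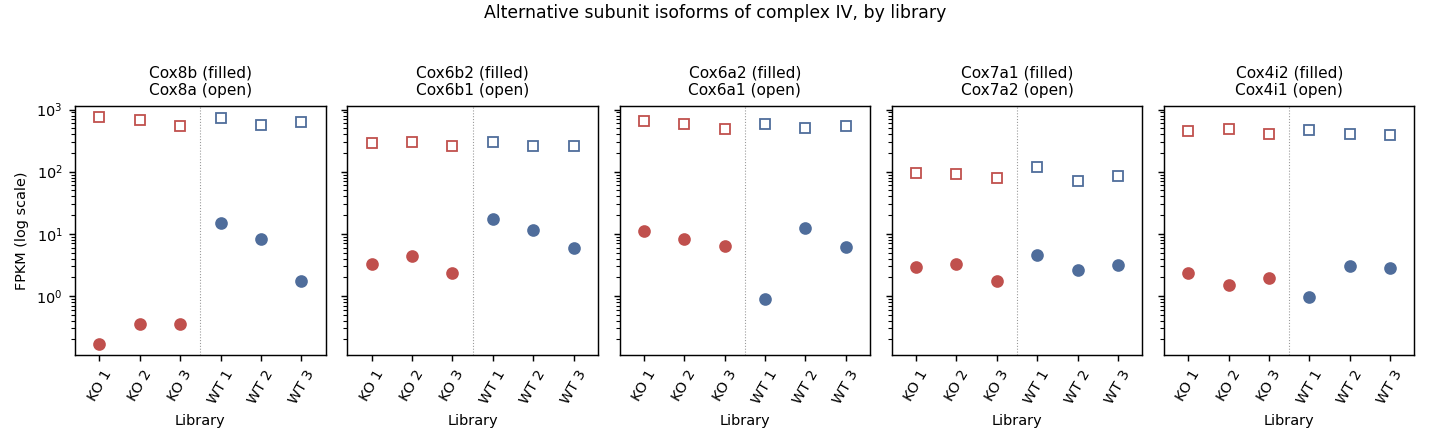
FPKM on a log axis in each of the 6 libraries (x axis; KO-labelled in red, WT in blue) for 5 pairs of complex IV isoforms, with the restricted isoform as filled circles and the widely expressed partner as open squares. Cox8b and Cox6b2 lie lower in all 3 KO-labelled libraries, while Cox6a2 and Cox4i2 are lowest in WT 1.

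Choroid plexus and ependymal markers moved with both isoforms. All 19 choroid plexus markers had negative log2 fold changes, with a median of -5.33, and their summed level was 614, 921 and 502 CPM in KO 1 to 3, against 24114, 18777 and 5741 CPM in WT 1 to 3. Of these markers only Tmem72 was at 0 in a library, which was KO 1. All 14 ependymal markers were negative as well, with a median of -0.98, and summed to 168, 160 and 124 CPM in KO 1 to 3, against 355, 260 and 241 CPM in WT 1 to 3. WT 1 was the highest and WT 3 the lowest WT library for Cox8b, Cox6b2 and both marker sums. The part of these cell types in the lower Cox8b and Cox6b2 was not tested. Of 9 skeletal muscle markers, Myh1, Myh4, Ckm, Mb and Tnnt3 did not pass the filter on low counts. The other 4 summed to 27.3 to 38.8 CPM in KO-labelled libraries, against 30.6 to 33.0 CPM in WT libraries. Most of this sum was Myh7, at 18.7, 29.4 and 24.8 CPM in KO 1 to 3, against 25.5, 24.5 and 23.1 CPM in WT 1 to 3. Acta1 was higher and Casq1 lower in all KO-labelled libraries, and the groups overlapped for Myh7 and Actn3.

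**Figure D3:**
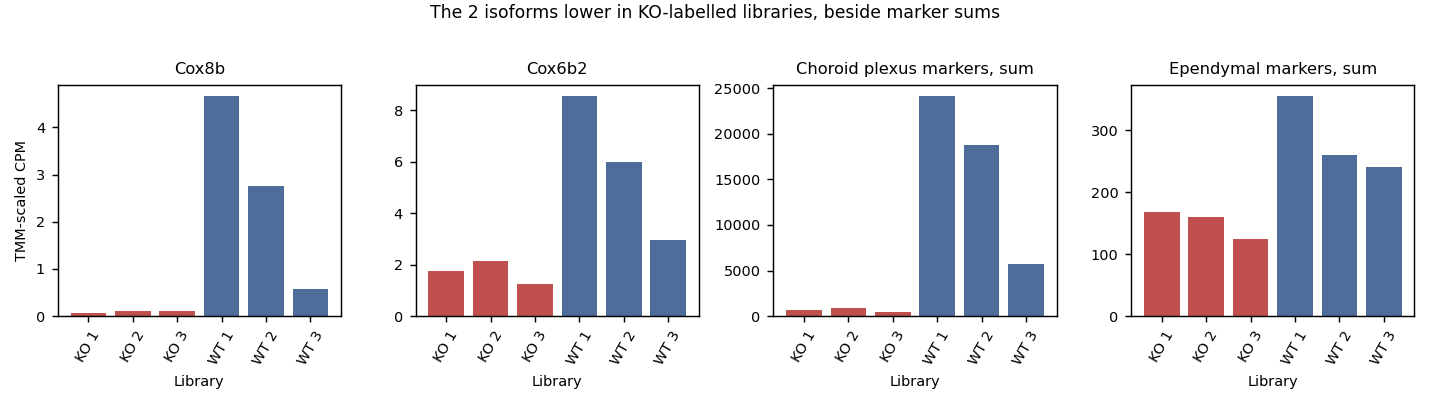
TMM-scaled CPM (bars, y axes from 0) in each library for Cox8b, Cox6b2, the sum of 19 choroid plexus markers and the sum of 14 ependymal markers. The 3 KO-labelled libraries (red) are below the 3 WT libraries (blue) in each panel, and WT 1 is the highest and WT 3 the lowest of the WT libraries in each.

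The other restricted isoforms did not follow that order. Cox6a2, the heart and muscle form of subunit VIa, was at 7.07, 5.13 and 4.05 CPM in KO 1 to 3, against 0.541, 7.98 and 3.83 CPM in WT 1 to 3. WT 1 stood far below the rest and WT 2 was highest. The striatal marker sum was 4320, 5438 and 5568 CPM in KO 1 to 3, against 804, 9270 and 2850 CPM in WT 1 to 3. It shared the lowest and the highest library with Cox6a2, but among KO-labelled libraries KO 1 was highest for Cox6a2 and lowest for the striatal sum. The part of striatal tissue was not tested. Its log2 fold change was 0.40 (SE 0.78; edgeR adjusted p = 0.903), and -0.12 without WT 1. Cox4i2, a form of subunit IV known from lung and from the response to low oxygen, was at 1.89, 1.09 and 1.41 CPM in KO 1 to 3, against 0.704, 2.34 and 2.09 CPM in WT 1 to 3. Its groups overlapped and its log2 fold change was -0.22 (SE 0.48; edgeR adjusted p = 0.916).

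Cox7a1, the heart and muscle form of subunit VIIa, was at 1, 1.09 and 0.587 CPM in KO 1 to 3, against 1.46, 0.900 and 1.04 CPM in WT 1 to 3. The groups overlapped and the log2 fold change was -0.34 (SE 0.37; edgeR adjusted p = 0.808). Its partner Cox7a2 had a log2 fold change of -0.01 (SE 0.18). Cox7b2, a testis form, had 3, 9 and 4 counts in KO 1 to 3, against 1, 3 and 5 counts in WT 1 to 3, too few for the test. Cox7b had a log2 fold change of 0.01 (SE 0.11), Cox6a1 one of 0.10 (SE 0.13) and Cox4i1 one of 0.12 (SE 0.12), and none of the 3 passed in edgeR.

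Complex V had the least spread between genes of the larger complexes: all 17 log2 fold changes lay between -0.09 and 0.15, and every 95% interval stayed within 1.5-fold. All 5 genes of the catalytic F1 head were positive, with a median of 0.09, as were all 4 of the peripheral stalk, which holds the head still while the ring turns, with a median of 0.07. Atp5b, the catalytic beta subunit, had the highest level per length of the complex, with a mean of 602 FPKM. It was at 1124, 1231 and 1129 CPM in KO 1 to 3, against 1033, 1179 and 1064 CPM in WT 1 to 3. WT 2 lay above KO 1 and KO 3, so the groups overlapped, and the log2 fold change was 0.09 (SE 0.11; edgeR adjusted p = 0.840). Atp5e, the smallest F1 subunit, had the lowest level per length, 91.8 FPKM.

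Atp5g1, Atp5g2 and Atp5g3 encode the same mature ring subunit with different import signals. Atp5g1 was at 144, 152 and 134 CPM in KO 1 to 3, against 175, 149 and 133 CPM in WT 1 to 3. Its share of the summed FPKM of the 3 genes was 35%, 37.6% and 35.1% in KO 1 to 3, against 40.0%, 39.0% and 37.3% in WT 1 to 3, with overlap. The log2 fold changes were -0.09 (SE 0.13) for Atp5g1, 0.12 (SE 0.10) for Atp5g2 and 0.07 (SE 0.11) for Atp5g3, and none passed in edgeR (adjusted p = 0.861, 0.761 and 0.875 in that order). Among the remaining genes, Atp5j2, Atp5o and Atp5d had the smallest p, with log2 fold changes of 0.14, 0.13 and 0.11.

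Members differed between libraries of the same group. The median member lay 0.06, 0.10 and -0.05 from its 6-library mean on the log2 scale in KO 1 to 3, against 0.12, -0.11 and -0.13 in WT 1 to 3. WT 1 and KO 2 were the high libraries and held the highest level of 38 and 30 of the 84 members. WT 3 and WT 2 were the low ones and held the lowest level of 39 and 23 members. The chain took 0.990%, 1.06% and 0.948% of all counts in KO 1 to 3, against 1.06%, 0.921% and 0.906% in WT 1 to 3. Leaving out the 5 tested restricted isoforms, the highest library exceeded the lowest by a median ratio of 1.32 over 79 members.

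**Figure D4:**
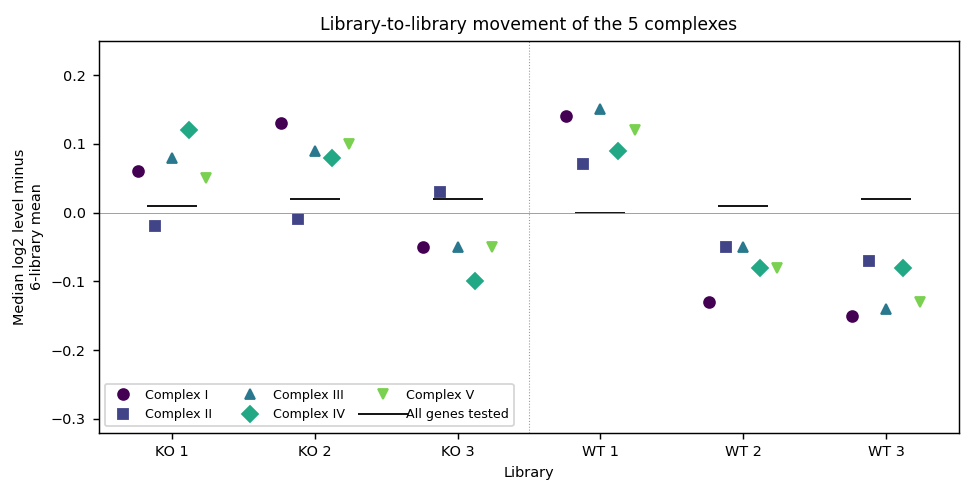
Median log2 level minus the 6-library mean (y axis) of the members of each complex in each library (x axis), with all genes tested as black dashes. Complexes I, III, IV and V are high in KO 1, KO 2 and WT 1 and low in KO 3, WT 2 and WT 3, so the pattern runs across the groups.

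This order ran across both groups and was steeper in short transcripts. The members were divided at their median transcript length of 635 bases, as implied by the deposited counts and FPKM. The 42 shorter members had medians of 0.10, 0.11 and -0.10 in KO 1 to 3, against 0.16, -0.13 and -0.15 in WT 1 to 3. The 42 longer members had 0.05, 0.10 and -0.01 in KO 1 to 3, against 0.04, -0.07 and -0.13 in WT 1 to 3. All 281 tested genes of that length or shorter, members included, had 0.12, 0.13 and -0.08 in KO 1 to 3, against 0.11, -0.17 and -0.11 in WT 1 to 3. The median log2 fold change was 0.13 over these 281 genes, beside 0.09 over the shorter members and 0.07 over the longer ones, and 0.02 over all genes above that length. The part of transcript length or RNA quality in the order of the libraries was not tested.

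The size of the small positive median depended on single libraries of both groups. It was 0.13 without KO 3, 0.05 without KO 2 and 0.06 without KO 1, and 0.15 without WT 1, 0.04 without WT 2 and 0.04 without WT 3, beside 0.08 with the 6 libraries. The core of complex I differed from the accessory subunits in WT 1: core genes had a median deviation of -0.07 there and accessory genes one of 0.15. In KO 1 to 3 the core genes had 0.03, 0.20 and -0.01, against -0.07, -0.07 and -0.09 in WT 1 to 3, and no test of core against accessory subunits was made.

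Promoters of the members were searched on both strands for 4 strings that are known binding motifs of respiratory chain genes or of core promoters. None of the strings contains another. NRF1, known in mammals as an activator of nuclear respiratory genes, binds GCGCA and GCGC with any 1 base between them, which was in the windows of 17 of 68 members (25%), against 10.2% of genes tested and 5.19% of all RefSeq genes with a window. The ETS core CCGGAAG, which GABP binds, was in 17 members (25%), against 17.6% of genes tested and 9.93% of all. The YY1 motif GCCATNTTG was in 11 members (16.2%), against 4.28% and 2.90%, and TATAAA in 7 members (10.3%), against 9.06% and 15.7%. A match is a string in the window and does not show binding. Uqcrc1 is printed as the member with an NRF1 match whose p was smallest, with 2 places in capitals just after the start (chr9:108936398-108936697, plus strand).
Uqcrc1: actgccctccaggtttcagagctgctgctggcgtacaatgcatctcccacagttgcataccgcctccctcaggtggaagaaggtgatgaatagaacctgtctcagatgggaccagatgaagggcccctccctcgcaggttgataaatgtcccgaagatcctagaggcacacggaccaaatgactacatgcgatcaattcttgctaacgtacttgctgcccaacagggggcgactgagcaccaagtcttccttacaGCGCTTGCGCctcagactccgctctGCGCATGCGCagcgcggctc

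Genes that build or serve the chain were read beside it. None passed in edgeR. The 9 subunits and associated factors whose symbols lie outside the prefixes had a median log2 fold change of 0.08, with 8 positive. Of 15 complex I assembly genes 13 had positive log2 fold changes, with a median of 0.08, and of 33 assembly genes of complexes II to V 23 were positive, with a median of 0.09. Uqcc2, an assembly factor of complex III, was at 46.0, 43.1 and 39.7 CPM in KO 1 to 3, against 36.3, 30.9 and 34.8 CPM in WT 1 to 3, without overlap (log2 fold change 0.34, SE 0.11; edgeR adjusted p = 0.431). Cox17, the copper chaperone of complex IV, had a log2 fold change of 0.30 (SE 0.10; edgeR adjusted p = 0.464) and Ndufaf5, a complex I assembly factor, one of 0.27 (SE 0.10; edgeR adjusted p = 0.496).

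The 78 mitochondrial ribosomal protein genes, which translate the subunits encoded in mitochondrial DNA, had a median log2 fold change of 0.11, with 64 positive and 14 negative. Mrps25, of the small ribosomal subunit, was at 92.3, 91.9 and 85.7 CPM in KO 1 to 3, against 73.3, 65.2 and 77.4 CPM in WT 1 to 3, without overlap (log2 fold change 0.32, SE 0.10; edgeR adjusted p = 0.416). Genes of the tricarboxylic acid cycle, which feeds NADH and succinate to the chain, had a median of 0.00 over 18 genes, with 9 positive and 9 negative. Mitochondrial import (21 genes) had a median of 0.08 and cristae organisation (8 genes) one of 0.03.

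Glycolysis genes had a larger median than the chain, 0.18 over 17 genes, with 15 positive, and each KO-labelled library lay above each WT library for 8 of them (all genes 8%). Tpi1, which interconverts the triose phosphates, was at 455, 453 and 392 CPM in KO 1 to 3, against 349, 358 and 361 CPM in WT 1 to 3 (log2 fold change 0.28, SE 0.11; edgeR adjusted p = 0.505). Pfkl, a phosphofructokinase, was at 138, 141 and 127 CPM in KO 1 to 3, against 117, 108 and 117 CPM in WT 1 to 3 (log2 fold change 0.25, SE 0.10; edgeR adjusted p = 0.519). Eno2 and Aldoc of this list are also on the neuron and astrocyte marker lists. The difference between glycolysis and the chain was not tested.

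Among 17 regulators of mitochondrial biogenesis the median was -0.02. Ppargc1a, a coactivator that drives respiratory gene programmes, was at 38.2, 30.5 and 48.3 CPM in KO 1 to 3, against 50.6, 57.0 and 50.6 CPM in WT 1 to 3. All KO-labelled libraries lay below the WT libraries, with a log2 fold change of -0.44 (SE 0.17; edgeR adjusted p = 0.531, DESeq2 adjusted p = 0.462). Esrrb, an orphan nuclear receptor, was at 0.589, 1.84 and 1.59 CPM in KO 1 to 3, against 5.30, 6.36 and 3.13 CPM in WT 1 to 3. Its log2 fold change was -1.87 (SE 0.47; edgeR adjusted p = 0.288), and DESeq2 called it lower (adjusted p = 0.0125). It was the 1 regulator of 17 that DESeq2 called, against 2.02% of all genes called lower. Of 10 inner membrane carriers, with a median of 0.09, DESeq2 called 1 lower (all genes 2.02%). This was Ucp2, an uncoupling protein gene (log2 fold change -1.07, SE 0.32; DESeq2 adjusted p = 0.0377; edgeR adjusted p = 0.394). Ucp2 was at 36.1, 51.9 and 38.7 CPM in KO 1 to 3, against 119, 95.1 and 51.8 CPM in WT 1 to 3, with KO 2 just above WT 3. WT 1 was highest and WT 3 lowest among WT libraries, as for the choroid plexus and ependymal sums, whose part in its values was not tested.

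**Figure D5:**
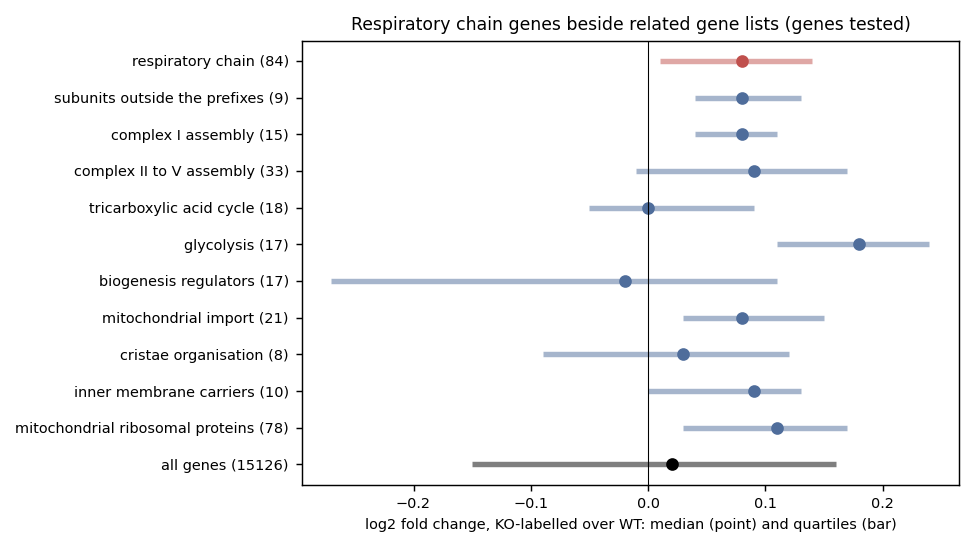
Median (point) and quartiles (bar) of the log2 fold changes, KO-labelled over WT (x axis), for the respiratory chain, 10 related lists and all genes tested, with the number of genes in brackets. The chain sits at 0.08 among lists between -0.02 and 0.18, and all genes at 0.02.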

How the data were processed

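Bulk RNA-seq of mouse SVZ was read from 1 deposited table of 61481 RefSeq transcripts with 3 libraries labelled KO and 3 labelled WT. The file headers name the deposited values read counts, given per transcript, and they are called estimated counts here. FPKM stand beside them, which were scaled by the authors to length and depth, as the ratio of FPKM to count shows for 10169 transcripts. The submitters' processing notes name mm10 and limma 3.40.6. An aligner and a quantifier are not given in the sources used.

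These counts were added up for each NCBI gene number and rounded. RefSeq (GRCm38.p6) named 18489 of 18614 genes, and the other 125 held 0.104% to 0.140% of counts. Libraries held 17037152 to 17685906 counts, so the floor of 3 counts lies between 0.162 and 0.180 CPM, for counting error only. No libraries of a group agreed within sampling noise (chi-square per degree of freedom 21.1 to 99.4). The main test was edgeR 4.0.16 (R 4.3.3) with TMM scaling, filterByExpr at a minimum count of 10, and the robust two-sided quasi-likelihood test with no covariate. Benjamini-Hochberg adjustment ran over 15126 genes, with a threshold of 0.05. Levels are TMM-scaled CPM, compared within a gene; levels between genes are FPKM summed per gene. Fold changes are KO-labelled over WT. The smallest exact permutation p of 3 against 3 is 0.1. The procedure was tested on simulated counts.

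Nothing in the labels says that libraries are separate animals, so p-values measure the spread between libraries, which may be technical. Replicate numbers did not pair the libraries. Alternatives were DESeq2 1.42.0 and its size factors, upper quartile scaling, no filter, a filter of 5 CPM, no robust option, limma-voom and limma 3.58.1 on log2(FPKM + 1), the replicate number as a block, each library left out, and KO 1 alone.

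The members, lists and motifs were chosen with earlier results of these data known. Named were the 4 genes per complex with the smallest p, alternative isoforms, the highest and lowest FPKM per complex, Zhx2, and the 2 genes per related list with the smallest p, of which some are named here. Genes outside this rule are named where a count or a role list needed them. Promoter windows and coordinates are RefSeq's, and 68 members had a window. The values of 1 member are not reported here on their own; it is included in the counts and medians.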

Additional observations from a re-analysis of the deposited data

How the results depend on the processing

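Of 570 values of 36 named members under 16 alternatives, 543 kept their direction and side of the threshold. DESeq2 called 311 genes and 2 members (Cox8b, log2 fold change -4.79, and Cox6b2, -1.78), where edgeR called 0. With single libraries left out, edgeR called 0 to 137 genes and 0 to 1 member, with the calls made only without WT 3. The median of the chain lay between 0.036 and 0.15 with single libraries left out and was positive in all 16 alternatives. The sign changed under at least 1 alternative in 11 members, among them Cox6a2 (0.40 with the 6 libraries) and Cox4i2 (-0.22). Cox7b was at -0.00071 with DESeq2 size factors, -0.00082 with DESeq2, -0.011 on FPKM and -0.0037 with KO 1 alone. Cox7a2 was at 0.0071 with limma-voom, 0.0067 under the replicate block and 0.11 with KO 1 alone. With KO 1 alone, Sdha was at -0.058, Sdhd at 0.006 and Cox4i2 at 0.15. With single libraries left out the range was -0.062 to 0.11 for Cox7b, -0.16 to 0.18 for Cox7a2, -0.012 to 0.20 for Cox6a1, -0.049 to 0.19 for Cox8a, -0.17 to 0.091 for Ndufa4, -0.076 to 0.015 for Sdhd, -0.12 to 1.31 for Cox6a2, -0.18 to 0.024 for Atp5g1, -0.60 to 0.066 for Cox4i2 and -0.0039 to 0.22 for Uqcr11. The cause was not tested. The filter of 5 CPM left out the members below it and gave no value for them. On log2(FPKM + 1), which understates low genes, Cox8b was at -2.51. The replicate block called 0 genes and 0 members. Same-numbered libraries had correlations of their deviations of -0.16, -0.067 and -0.037, so the numbers were not used as pairs. Depth limits Cox8b, Cox7b2 and the other isoforms near 1 CPM.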

Other observations

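Transcript splits within genes were available for 11 members that had more than 1 transcript and enough counts (a mean of at least 200 for the transcripts compared). The share of the main transcript did not overlap between groups for 1 of them, Atp5g1, named after its values were seen, against 20.8% of 3139 genes. That transcript held 63.9%, 63.5% and 53.4% of Atp5g1 counts in KO 1 to 3, against 32.8%, 52.2% and 46.5% in WT 1 to 3. These are estimated splits between overlapping transcripts.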
